A study of Mus musculus with 11 samples.

Results

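The SPARC family of secreted matricellular proteins was examined in embryonic mouse hearts of 3 genotypes. Its members were taken by gene symbol: Sparc, Sparcl1, Smoc1, Smoc2, Spock1, Spock2, Spock3 and Fstl1. On the array these 8 genes, of 18193 with a single gene symbol, were read by 15 of the 45101 probe sets, and every one of them was kept. A probe set is a group of short oligonucleotides whose brightness is summarised as 1 value for a transcript. The platform annotation used here can be old.

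RNA came from pooled hearts at embryonic day 9.5, and each of the 11 samples was hybridised to 1 one-colour array. The control group (3 arrays) carried 1 floxed Gata4 allele and no Cre, written Gata4 flox/+; Nkx2-5 +/+. The double heterozygous group (3 arrays) was Gata4 flox/+; Nkx2-5 cre/+, with Cre carried by 1 Nkx2-5 allele. The third group (5 arrays) was Gata4 flox/flox; Nkx2-5 cre/+, the conditional knockout, abbreviated CKO. Every group thus had at least 1 floxed Gata4 allele, and only the comparison between the groups that share the Cre allele isolates the second floxed allele. The labels do not say how many hearts entered a pool or whether replicates came from separate litters. The p-values therefore rest on the differences among these samples alone, and part of that spread may be technical.

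SPARC family proteins share a follistatin-like domain, and most also have an extracellular calcium-binding domain. They are secreted into the matrix, where they regulate collagen assembly, cell adhesion and access to growth factors rather than bearing load. In the heart Sparc is known for its role in collagen processing, Sparcl1 for its presence around vessels, and Fstl1 for its secretion by the epicardium and mesenchyme. The Smoc proteins lie in basement membranes and act on BMP signalling, and the Spock proteins, or testicans, are proteoglycans best known from the nervous system.

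Values are given below on both of these scales, the deposited intensity and log2 of the intensity plus 16 after quantile normalisation. By mean deposited intensity CKO replicate 3 was dimmest, at 117.2, and the other 10 arrays ranged from 166.4 to 175.6. The log2 beta-actin 3′ minus 5′ signal, a sign of RNA quality, was 1 in CKO replicate 2 and 0.29 to 0.45 elsewhere. Summed normalised intensity of 6 myocardial markers was 38600 to 42090 in all arrays. Gata4 itself, the gene targeted in the knockout, was not lower on its main probe set in the group labelled CKO. That probe set was at 8.98 ± 0.19 in controls, 9.31 ± 0.097 in double heterozygotes and 9.43 ± 0.11 in the CKO group (log2, SD, n = 3, 3 and 5), a difference from control of 0.45 (SE 0.097, limma adjusted p = 0.0321). On the deposited scale CKO replicate 3, the dimmest array, was at 487, inside the control range of 449 to 553. The other 4 arrays of its group were at 626 to 729. A dimmer Gata4 probe set differed by 0.08 (SE 0.38): CKO replicate 2 was at 6.42, below the controls at 7.98 to 8.15, and the other 4 CKO-labelled arrays were above them at 8.26 to 8.81. No source used here says whether the floxed segment includes these probe sets, so they could not check the deletion, and the third group is called CKO-labelled throughout.

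Promoter sequence was available from RefSeq (build GRCm38.p6) for 5 of the 8 members, in 6 windows from 250 bases before to 50 bases after a transcription start. Sparcl1, Smoc1 and Smoc2 had no window and were not searched. The Sparc stretch is shown because Sparc is 1 of the 2 members that passed the test below. The Fstl1 stretch is shown because it holds the only match of the 6 windows to a GATA motif, the type of site that Gata4 binds. The motif was searched on both strands as the letters GATA with A or T before them and A or G after them, and capitals mark the match. The Sparc stretch, chr11:55420081-55420330 on the minus strand, is the 250 bases before the start. The Fstl1 stretch, chr16:37777058-37777087 on the plus strand, covers bases 4 to 33 of the transcript.
Sparc: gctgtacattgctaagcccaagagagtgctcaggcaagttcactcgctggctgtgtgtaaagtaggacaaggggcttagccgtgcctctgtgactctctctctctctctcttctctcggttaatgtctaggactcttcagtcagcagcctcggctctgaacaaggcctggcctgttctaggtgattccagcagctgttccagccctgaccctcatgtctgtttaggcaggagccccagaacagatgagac
Fstl1: ctcggagcctggTGATAAgcgacgctccca
The Fstl1 match lies at bases 16 to 21 of the transcript. Of all 32851 promoter windows in the RefSeq table, 29.8% held at least 1 such match. The full Sparc window held no match to this motif, none to the hypoxia response core (CGTG with A or G before it, in 43.8% of windows) and none to the NKX2-5 letters AAGTG (in 46.4% of windows). These counts describe the letters in the window and say nothing about binding.

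In CKO-labelled against control hearts, 2 of the 8 genes were called higher, Sparcl1 by 3.84-fold and Sparc by 1.44-fold, and no member was called lower. By probe set, 3 of 15 were called higher and 0 lower at an adjusted p under 0.05, which is 20% of the probe sets. Over all 45037 probe sets tested, 1.4% were called in this comparison, 0.837% higher and 0.566% lower. By gene, 25% of the members and 2.06% of all genes were called. The 3 probe sets read only Sparcl1 and Sparc. The Sparc calls were lost on the values as deposited and with median centring of the arrays, which left 1 of 15. Members were chosen with earlier results of these data known. These shares are therefore a description and no test of the family. The median log2 difference of the 15 member probe sets was 0.22, and the median of all probe sets was -0.008. The mean was higher in the CKO-labelled group for 13 of the 15, against 48.5% of all probe sets. Between double heterozygotes and controls it was higher for 12 of the 15 (median 0.2), against 49.8% of all. Between CKO-labelled and double heterozygous hearts it was higher for 9 of the 15 (median 0.07), against 48.8% of all. For CKO-labelled against control, 5 of 15 had an unadjusted p under 0.05, against 13.2% of all probe sets. The CKO-labelled arrays all lay above the controls in 3 of 15, those of Sparcl1 and Sparc that were called, against 3.93% of all probe sets. Over the 3 groups together the F-test called 1 of 15, that of Sparcl1, against 0.961% of all probe sets.

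**Figure D1:**
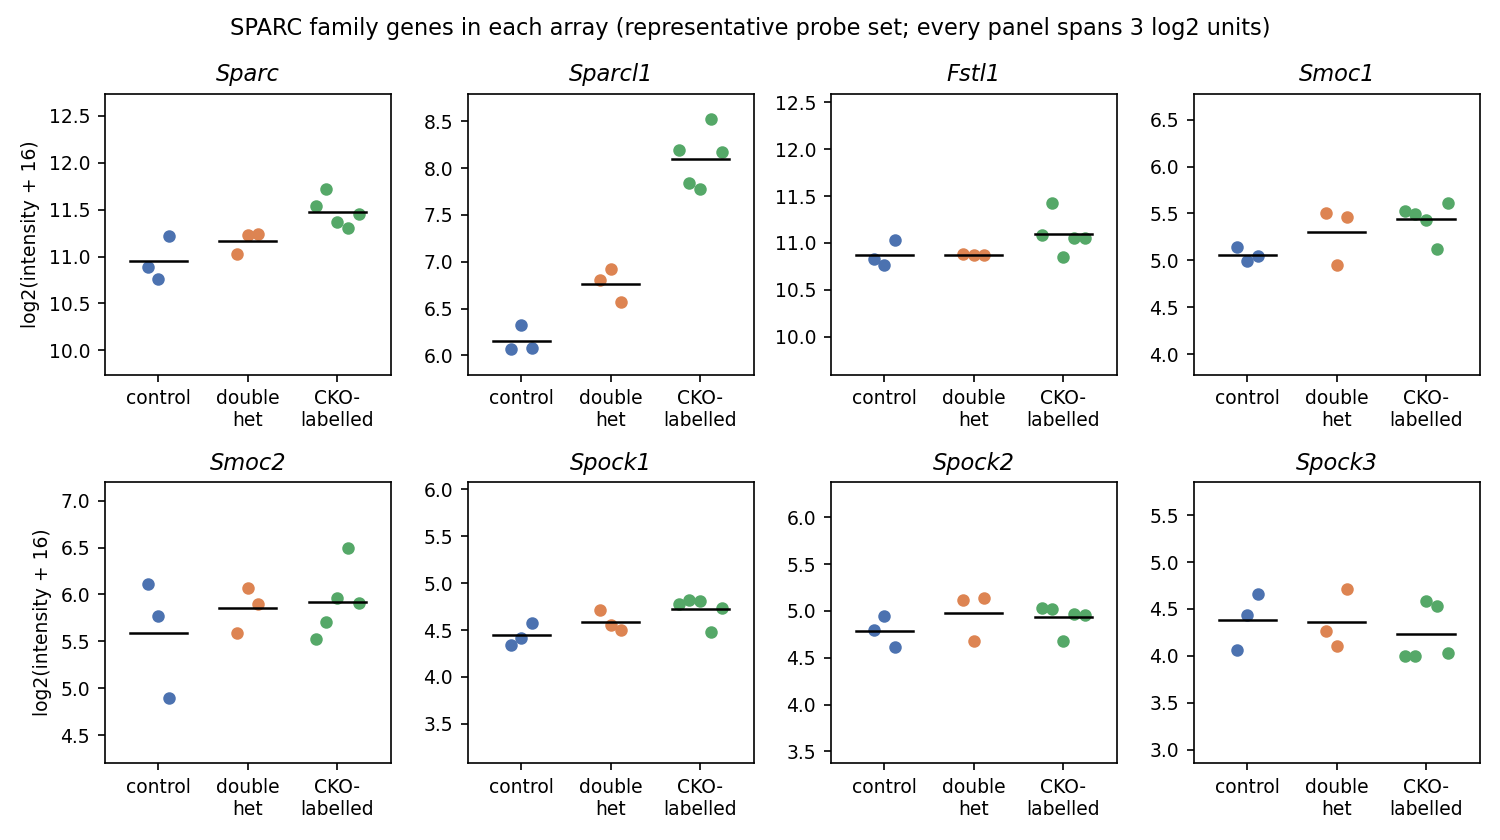
Each panel shows 1 SPARC family gene on its representative probe set, with log2(intensity + 16) after quantile normalisation on the vertical axis, the 3 genotype groups on the horizontal axis, 1 point per array and a line at the group mean. Sparcl1 steps up from 6.16 through 6.77 to 8.1 with no overlap, the Sparc means go from 10.95 to 11.48, and the arrays of the other 6 genes overlap between groups.

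Sparcl1, also called hevin, is an anti-adhesive relative of Sparc, read here by a single probe set (1416114_at). Its deposited intensities were 47.8, 67.8 and 56.9 in the control arrays. They were 98, 109 and 78.2 in the double heterozygous arrays. In the CKO-labelled arrays they were 283, 220, 135, 362 and 276. All 3 groups were separate on the deposited scale, and CKO replicate 3, the dim array, was the lowest of its group.

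After normalisation the Sparcl1 values were 6.07, 6.32 and 6.08 in controls, 6.81, 6.92 and 6.57 in double heterozygotes, and 8.19, 7.84, 7.78, 8.52 and 8.17 in CKO-labelled hearts. The group means were 6.16 ± 0.14, 6.77 ± 0.18 and 8.1 ± 0.3 (SD, n = 3, 3 and 5). Every CKO-labelled array lay above every double heterozygous array, and each of those lay above every control. Among all probe sets 103, or 0.229%, had their arrays in this order. For the means alone, 7 of the 15 member probe sets followed it, against 18.6% of all probe sets.

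CKO-labelled minus control was 1.94 log2 for Sparcl1 (SE 0.16, 95% interval 1.6 to 2.28, limma adjusted p = 3.57e-05), a 3.84-fold difference with an interval of 3.04 to 4.85. Because 16 was added to dim and bright values alike, this fold understates a change that starts from a low intensity. The difference was 2.2 with an offset of 1 and 1.43 with an offset of 64, and it was called with both.

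Between the groups that share the Cre allele, CKO-labelled minus double heterozygous, Sparcl1 was higher by 1.33 (SE 0.16, 95% interval 0.99 to 1.67, adjusted p = 0.00206), or 2.52-fold. It was the only 1 of the 15 member probe sets called in this comparison, where 0.349% of all probe sets were. At an unadjusted p under 0.05 there were 5 of 15, against 12% of all, and in 2 of 15, of Sparcl1 and Sparc, the CKO-labelled arrays all lay above the double heterozygous ones, against 3.07% of all. This call was lost on the values as deposited (1.23, adjusted p = 0.0672) and without empirical Bayes moderation (1.33, adjusted p = 0.0833). Double heterozygous minus control was 0.61 (SE 0.18, 95% interval 0.23 to 0.99), with an unadjusted p of 0.00372 and an adjusted p of 1, so it was not called although the 3 arrays of one group all lay above the 3 of the other.

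Double heterozygous against control hearts gave 0 of the 15 member probe sets called and 0 of all probe sets, which is 0%. At an unadjusted p under 0.05 it gave 2 of 15 members and 1435 of all probe sets (3.19%), while at the adjusted threshold the fit with array weights called 8 of all probe sets. In 3 of 15 member probe sets, of Sparcl1, Sparc and Fstl1, the double heterozygous arrays all lay above the controls, against 4.69% of all probe sets. The difference of the second Sparcl1 step (double heterozygous to CKO-labelled) from the first (control to double heterozygous), a contrast chosen after the values were seen, was 0.72 (SE 0.3, 95% interval 0.09 to 1.36). Its unadjusted p was 0.0276 and its adjusted p 0.991, with 0 of 45037 probe sets called, so a larger second step was not established.

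The RNA of a whole heart was measured, so more cells that express a gene and more RNA per cell cannot be told apart. Of 9 endothelial markers, the means of 8 were higher in CKO-labelled than in control hearts, 2 were called higher and 1 lower. Kdr, a VEGF receptor, was higher by 0.68 (SE 0.11, adjusted p = 0.00678), and Cdh5, the junctional cadherin of endothelium, by 0.63 (SE 0.12, adjusted p = 0.0189). Tek, the angiopoietin receptor, fell by 0.65 (SE 0.088, adjusted p = 0.0015). On the values as deposited the Kdr and Cdh5 differences were 0.54 and 0.48, and neither was called there or with median centring. The fall of Tek was called in both (-0.79, adjusted p = 0.0401, and -0.8, adjusted p = 0.00588), though not against double heterozygotes (-0.34, adjusted p = 0.126). Kdr was also called against double heterozygotes, as Sparcl1 was (0.68, adjusted p = 0.0177), but not on the values as deposited (0.56) or with median centring (0.51). The summed intensity of the 9 markers was 2115 to 2255 in controls, 2128 to 2234 in double heterozygotes and 2453 to 2885 in CKO-labelled hearts, and no marker was at 0.

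Single genes of 3 other cell type lists were called. Isl1, a transcription factor of pharyngeal and second heart field progenitors, was the only 1 of 4 pharyngeal mesoderm markers called, higher by 1.38 (SE 0.13, adjusted p = 8.39e-05). It was called against double heterozygotes too (0.69, adjusted p = 0.0308), though not as deposited (0.57) or with median centring (0.52). The sum of that list was 136 to 159.8, 215.2 to 252.3 and 283.2 to 412.8 in the 3 groups, in the order used above. Most of it was Isl1, with deposited intensities of 89.1 to 360, while Fgf10, Fgf8 and Tbx1 reached at most 27.8, 41.6 and 19.3. Those 3 genes differed from control by -0.11, 0.52 and 0.07. Of 6 proepicardial markers, 2 were called lower, Tcf21 by 1.31 (adjusted p = 0.0171) and Upk1b by 1 (adjusted p = 0.0151), with sums of 914.1 to 990.8, 441.1 to 684.2 and 314.1 to 841.4. Neither was called against double heterozygotes (-0.7, adjusted p = 0.276, for Tcf21 and -0.13 for Upk1b), and on the values as deposited Upk1b was not called against control (-1.06, adjusted p = 0.0645). Tcf21 marks epicardial progenitors, and Upk1b encodes a uroplakin of the mesothelial surface. The means of 5 of the 6 proepicardial markers were lower than in control, and 4 were lower than in double heterozygotes. Wt1 went the other way in both comparisons without being called, by 0.23 (adjusted p = 0.649) and 0.64 (adjusted p = 0.169). Among the 6 myocardial markers Myh7, a myosin heavy chain, was called higher by 0.27 (adjusted p = 0.0154), but not as deposited (0.17, adjusted p = 0.695) or with median centring (0.16, adjusted p = 0.474), and the list's median difference was 0.01. The part of any of these cell types in the Sparcl1 and Sparc differences was not tested.

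**Figure D2:**
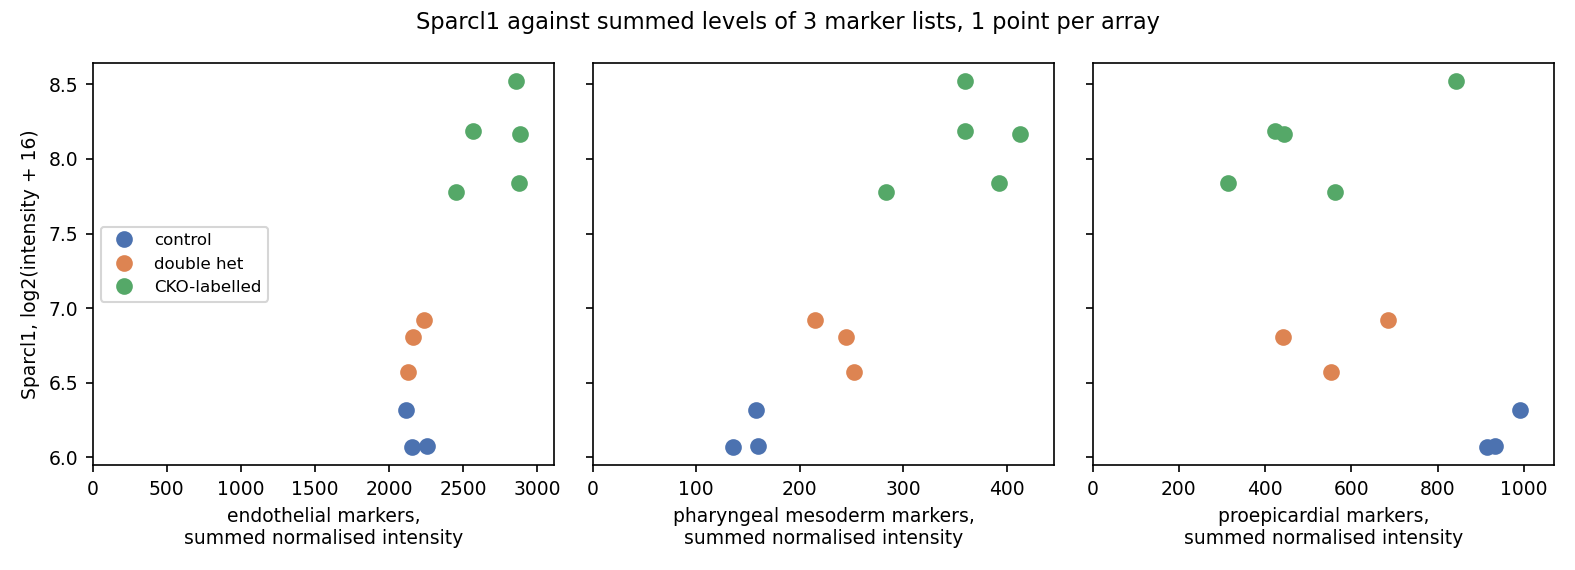
Each point is 1 array, with Sparcl1 as log2(intensity + 16) on the vertical axis against the summed normalised intensity of the endothelial, pharyngeal mesoderm or proepicardial markers on the horizontal axis, coloured by genotype group. The endothelial sums of control (2115 to 2255) and double heterozygous arrays (2128 to 2234) overlap. The Sparcl1 values of these groups are separate, by a mean difference of 0.61 that was not called. The CKO-labelled arrays are higher on both. The pharyngeal sums, made up mostly of Isl1, separate all 3 groups.

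The remaining marker lists had 0 genes called in any pairwise comparison, where genes called over all 18193 were 2.06%, 0.517% and 0% in the order of the comparisons above. In the cushion and mesenchyme list (7 genes) the smallest p-values were those of Twist1 (-0.64, adjusted p = 0.116) and Sox9 (-0.54, adjusted p = 0.116), with sums of 601.6 to 679.2, 505.4 to 720.6 and 367.6 to 665.8. In the erythroid list (4 measured) they were those of Alas2 (0.52) and Gata1 (0.24), with sums of 10140 to 12800, 10520 to 12870 and 9667 to 14360. Each of these lists overlapped between groups.

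The yolk sac and gut endoderm list (9 genes, Apob and Foxa2 listed at 0 in at least 1 array) had sums of 149 to 268.8, 135.3 to 212.1 and 129.4 to 418. Its smallest p-values belonged to Apob (0.27) and Shh (0.31). The neural crest and neural list (5 genes) had sums of 89.51 to 99.65, 78.83 to 125.3 and 72.84 to 118.1, with Tubb3 (-0.51) and Foxd3 (0.22) lowest in p. Both lists overlapped between groups.

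Sparc, the founding member, binds collagen and acts in its processing before fibrils form, and 3 probe sets read it. Values on the main probe set (1416589_at) were 10.89, 10.76 and 11.22 in controls, 11.03, 11.23 and 11.24 in double heterozygotes, and 11.54, 11.72, 11.37, 11.3 and 11.45 in CKO-labelled hearts. The CKO-labelled arrays were all above both other groups, which overlapped each other. The highest was CKO replicate 2, the array with the large beta-actin 3′ minus 5′ signal, and without it the difference from control was 0.46 (adjusted p = 0.027).

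The Sparc group means were 10.95 ± 0.24, 11.17 ± 0.12 and 11.48 ± 0.17 (SD, n = 3, 3 and 5). CKO-labelled minus control was 0.52 (SE 0.11, 95% interval 0.3 to 0.75, limma adjusted p = 0.0261), or 1.44-fold. CKO-labelled minus double heterozygous was 0.31 (95% interval 0.08 to 0.54, adjusted p = 0.261) and double heterozygous minus control 0.21 (95% interval -0.04 to 0.47, adjusted p = 1). Sparc was thus called only against the control, and its F-test over the 3 groups gave an adjusted p of 0.056.

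The second Sparc probe set (1448392_at) was at 10.46, 10.59 and 10.59 in controls and 10.74, 10.83 and 10.67 in double heterozygotes. It was at 10.7, 11.37, 11.06, 11.02 and 11.04 in CKO-labelled hearts. Here the controls stood below both other groups, and CKO replicate 1 lay within the double heterozygous range. CKO-labelled minus control was 0.49 (SE 0.11, 95% interval 0.26 to 0.72, adjusted p = 0.0362), CKO-labelled minus double heterozygous 0.29 (adjusted p = 0.3). The third probe set (1458204_at), with deposited intensities of 15.4 to 40.3, differed by 0.21 (SE 0.18, 95% interval -0.18 to 0.6, adjusted p = 0.697) and overlapped between groups. Over the 11 arrays the first and second probe sets had a Pearson r of 0.77, and the third had r of 0.2 and 0.16 with them.

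The Sparc call depended on the scaling. On the values as deposited the main probe set differed by 0.37 (adjusted p = 0.505) and with median centring by 0.36 (adjusted p = 0.234). On the deposited scale CKO replicate 3, at 1850, was inside the control range of 1830 to 2470, while the other CKO-labelled arrays were at 2570 to 3550. The call was also lost without control replicate 1 (0.49, adjusted p = 0.166), control replicate 2 (0.43, adjusted p = 0.184) or CKO replicate 5 (0.53, adjusted p = 0.0585).

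**Figure D3:**
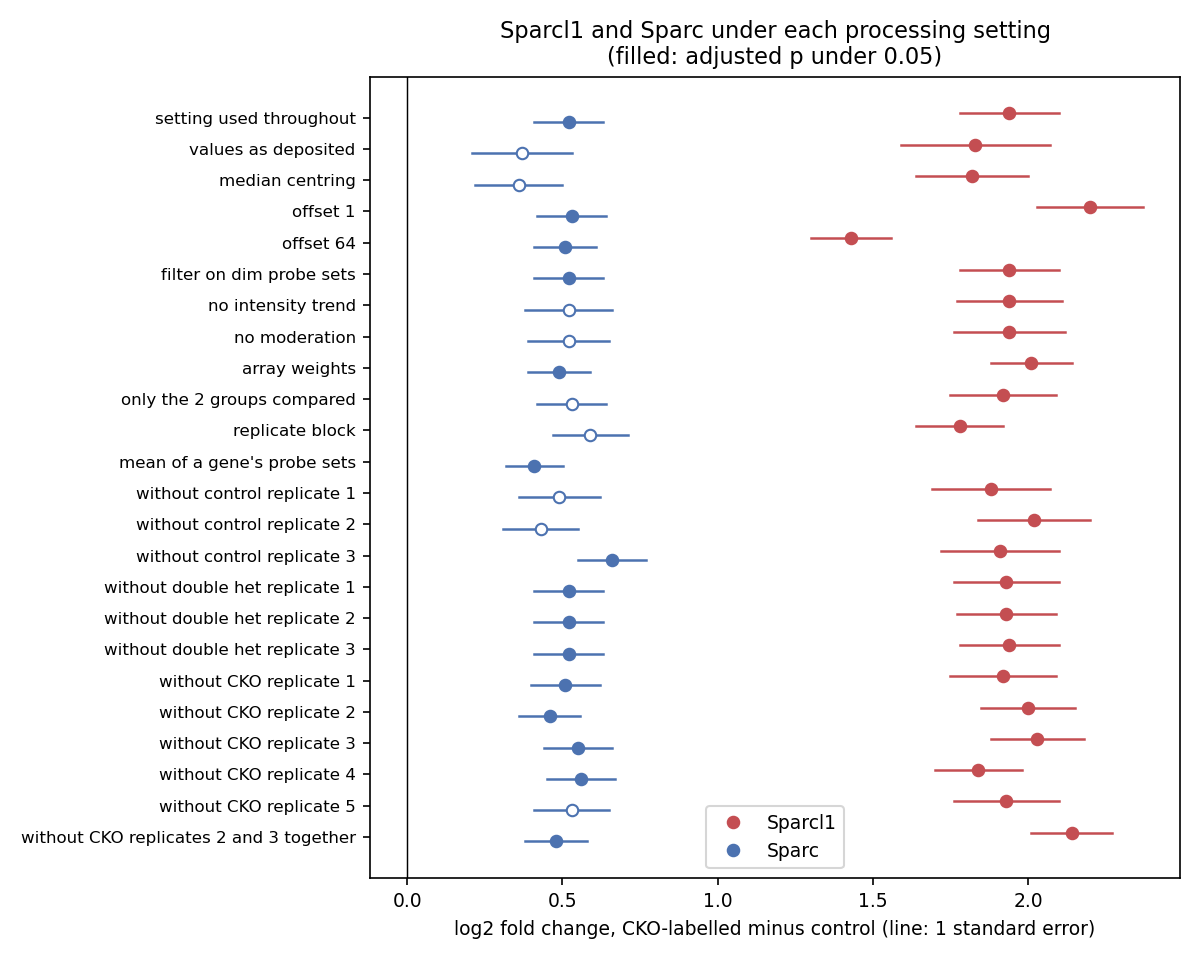
The horizontal axis gives the log2 difference CKO-labelled minus control of Sparcl1 and Sparc, with a line of 1 standard error on each side, for the setting used throughout and for each alternative on the vertical axis; filled points had an adjusted p under 0.05. Sparcl1 is filled in every setting, from 1.43 to 2.2, while Sparc lies between 0.36 and 0.66 and is open in 9 of its 23 alternatives.

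As a description of the pair, log2 Sparcl1 minus log2 Sparc was higher by 1.42 in CKO-labelled than in control arrays and by 1.02 than in double heterozygous arrays. Between double heterozygotes and controls it was higher by 0.4. The pair was chosen after both differences had been seen, so no test is given.

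Fstl1, a secreted glycoprotein with a follistatin-like domain, is read by 2 probe sets, and neither was called. On 1416221_at the values were 10.83, 10.76 and 11.03 in controls, 10.88, 10.87 and 10.87 in double heterozygotes, and 11.08, 11.43, 10.85, 11.05 and 11.05 in CKO-labelled hearts. The groups overlapped, and CKO replicate 2 was again the highest array. CKO-labelled minus control was 0.22 (SE 0.1, 95% interval 0 to 0.44, adjusted p = 0.388), and CKO-labelled minus double heterozygous 0.22 (adjusted p = 0.416).

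On 1448259_at Fstl1 was at 10.37, 10.41 and 10.45 in controls, 10.58, 10.63 and 10.7 in double heterozygotes, and 10.45, 10.76, 10.48, 10.71 and 10.79 in CKO-labelled hearts. The double heterozygous arrays were all above the controls, by 0.23 on the means (95% interval 0.02 to 0.43, unadjusted p = 0.0304, adjusted p = 1). CKO-labelled minus control was 0.23 (SE 0.084, 95% interval 0.05 to 0.41, adjusted p = 0.236), and CKO-labelled minus double heterozygous was 0 (95% interval -0.18 to 0.18). The probe sets thus placed the double heterozygotes differently, and their r over 11 arrays was 0.53.

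Smoc1, a basement membrane protein that antagonises BMP signalling, was dim, with deposited intensities of 13.1 to 39.1 on 1448321_at. Its values were 5.14, 4.99 and 5.05 in controls, 5.5, 4.95 and 5.46 in double heterozygotes, and 5.53, 5.49, 5.43, 5.12 and 5.61 in CKO-labelled hearts. CKO replicate 4 overlapped the controls, and CKO-labelled minus control was 0.38 (SE 0.16, 95% interval 0.03 to 0.73, unadjusted p = 0.037, adjusted p = 0.335). The interval against double heterozygotes was -0.22 to 0.48.

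Smoc2, its close relative, had its widest spread among the controls, at 6.11, 5.77 and 4.9 on 1415935_at. The other arrays were at 5.59 to 6.07 (double heterozygous) and 5.52 to 6.5 (CKO-labelled), inside that range except for CKO replicate 4, which was above it. CKO-labelled minus control was 0.33 (95% interval -0.22 to 0.87, adjusted p = 0.652), and -0.02 without control replicate 3. A second probe set (1431362_a_at) differed by 0.05 (95% interval -0.51 to 0.61), and the r between the probe sets was 0.63.

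The 3 testicans, Spock1, Spock2 and Spock3, are proteoglycans of the extracellular matrix that inhibit or regulate proteases, and they were near the floor of the scale, which is 4 (the log2 of the offset). Their deposited intensities on 6 probe sets ran from 0 to 19.6. Spock1 differed by 0.28 (95% interval -0.01 to 0.56, adjusted p = 0.401) on 1419673_at and by -0.3 (95% interval -0.65 to 0.04, adjusted p = 0.456) on 1419672_at, and the r between the probe sets was -0.5.

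Spock2 differed by 0.14 on both probe sets (1435026_at and 1450451_at, 95% intervals -0.19 to 0.47 and -0.29 to 0.57). Spock3 differed by -0.15 (1449979_a_at, 95% interval -0.57 to 0.26) and 0.18 (1459834_x_at, 95% interval -0.15 to 0.51). The r between the probe sets was -0.12 for Spock2 and -0.16 for Spock3. No testican difference was called in any comparison, and probe sets of Spock1 and Spock3 pointed in opposite directions. At these intensities none was detectable, which does not show that none occurred.

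**Figure D4:**
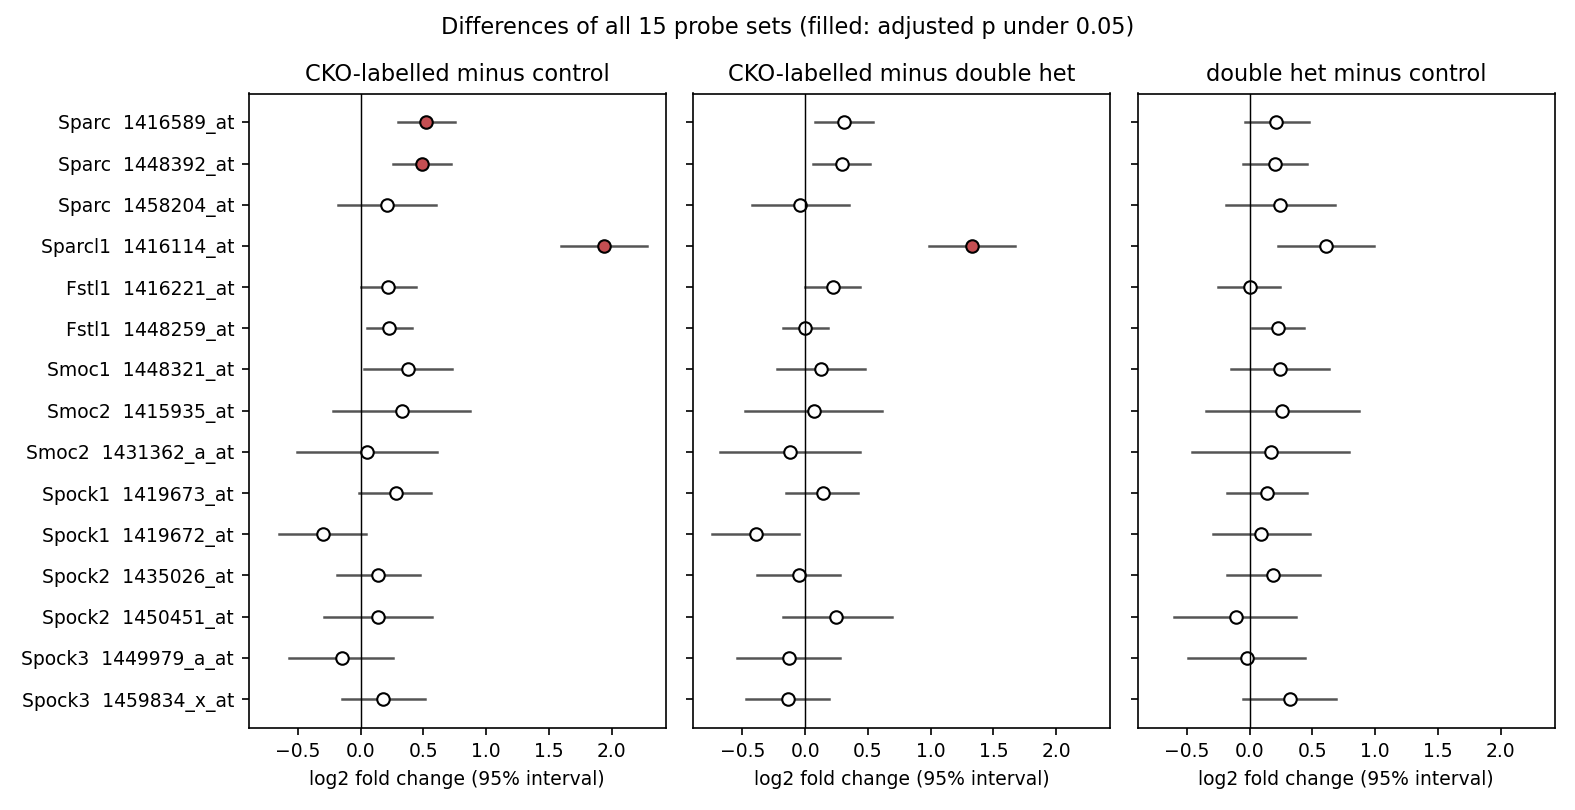
Log2 differences of all 15 SPARC family probe sets on the horizontal axis, with 95% intervals, for the 3 pairwise comparisons in separate panels; filled points had an adjusted p under 0.05. Sparcl1 (1.94 and 1.33) and the first 2 Sparc probe sets (0.52 and 0.49, against control) are filled, and no point is filled in the double heterozygous minus control panel.

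Genes were also ranked by how like a called member they were across the 11 arrays, over 9095 genes whose mean was above the median. The genes most like Sparcl1 were Cracd (Pearson r 0.985), Armh4 (0.979), Sox7 (0.972), Proser2 (0.966) and Pdk1 (0.966). Sox7 is an endothelial transcription factor and Pdk1 a kinase that restrains pyruvate dehydrogenase. Since Sparcl1 differs between the groups, genes that also differ rank high by r alone. With the group means removed, r was 0.96, 0.68, 0.9, 0.86 and 0.79. The genes were picked on these same arrays, which raises these values too. All 5 were called higher in CKO-labelled against control hearts, by 0.96, 0.82, 0.95, 1.03 and 0.56 in the same order. Against double heterozygotes Cracd, Armh4 and Sox7 were called higher (0.81, 0.62 and 0.85). Proser2 (0.73, adjusted p = 0.0917) and Pdk1 (0.44, adjusted p = 0.0571) were not.

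The genes most like Sparc were Tril (r 0.955), Creb3l2 (0.951), Epb41l5 (0.928), Col5a1 (0.924) and Tinagl1 (0.922). After removing group means r was 0.85, 0.85, 0.82, 0.74 and 0.73, raised by the choice in the same way. Creb3l2 encodes a transcription factor of the secretory pathway, Col5a1 a fibrillar collagen chain that regulates fibril diameter, and Tinagl1 a matricellular protein of basement membranes. Against control, Creb3l2 (0.5, adjusted p = 0.0242), Col5a1 (0.44, adjusted p = 0.0321) and Tinagl1 (0.73, adjusted p = 0.00555) were called higher. Tril (0.61, adjusted p = 0.0528) and Epb41l5 (0.38, adjusted p = 0.0966) were not. None of these 5 genes was called against double heterozygotes (adjusted p 0.177 to 0.615). The 2 sets of 5 shared no gene.

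Around the family, 3 lists of matrix genes gave 1 call each against control. Of 15 other matricellular proteins measured, Ccn2 was called higher, 0 lower and 14 were not called, with a median difference of 0.05. Ccn2, a connective tissue growth factor of the CCN group, was at 8.45 to 8.97 in controls, 8.78 to 8.87 in double heterozygotes and 9.53 to 10.43 in CKO-labelled hearts, a difference of 0.99 (SE 0.18, adjusted p = 0.0118). It was also called against double heterozygotes (0.91, adjusted p = 0.0394), but not on the values as deposited (0.8, adjusted p = 0.413) or with median centring (0.75, adjusted p = 0.0943). Over all genes, 2.06% were called against control and 0.517% against double heterozygotes, and the median difference against control was -0.02.

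Of 15 collagen and basement membrane partners, Col5a1 was the 1 called, at 8.46 to 8.71 in controls, 8.76 to 8.8 in double heterozygotes and 8.96 to 9.27 in CKO-labelled hearts (list median 0.18). Of 20 receptors, ligands and proteases of the family, Vegfa, an endothelial growth factor that Sparc binds, was the 1 called, at 7.29 to 7.63, 7.27 to 7.4 and 7.89 to 9.1 in the same order (0.91, SE 0.21, adjusted p = 0.0451, list median -0.03). In each case the CKO-labelled arrays lay above both other groups. Against double heterozygotes Col5a1 and Vegfa were not called (0.27, adjusted p = 0.267, and 0.98, adjusted p = 0.0626). Against control, on the values as deposited, none of these 3 calls held (Ccn2 0.84, Col5a1 0.29, Vegfa 0.76), and with median centring only that of Ccn2 did (0.83, adjusted p = 0.0273).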

How the data were processed

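The authors deposited linear intensity values made with PLIER, which summarises the probes of a probe set, per the submitters' processing notes. Its version, background correction and scaling, and any detection calls, were not found in the sources used here. The number of arrays limits the precision. RNA was extracted with TRIzol and 50 ng amplified, per the labels' protocols.

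From them log2(value + 16) was computed, 64 control probe sets were removed, and arrays (medians spanning 0.465) were quantile normalised. limma 3.58.1 (R 4.3.3) fitted 1 coefficient per group over 11 arrays and 45037 probe sets, with a moderated intensity trend. Tests were two-sided, with Benjamini-Hochberg adjustment within each comparison. The fit was checked on simulated data with independent noise and changes placed only in probe sets brighter than the median. Of the 15 member probe sets 7 are that bright, so detection in the dimmer ones was not checked. A gene's representative is its probe set of highest mean, passing over _x_at and _s_at ones where another exists. Of the probe sets, 34945 have 1 symbol, 932 several and 9160 none. Of 111 listed genes 108 matched.

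Named genes were the members, each list's called genes (otherwise the 2 of smallest p), and the 5 most like each called member. Members and lists were chosen with earlier results of these data known. Same-numbered samples were not paired (deviations correlated -0.056 to 0.15). Alternatives covered offset, scaling, filter, model, block, probe set choice and left-out arrays.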

Additional observations from a re-analysis of the deposited data

Results flagged for a closer look

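Groups of 4 or more arrays were checked for an array far from the rest, in 26 sets of CKO-labelled values, and about 1 in 20 such sets is picked out by chance. For Spock1 (1419673_at) CKO replicate 4 was low, at 4.48 against 4.74 to 4.82 in the other CKO-labelled arrays, and for Spock2 (1435026_at) CKO replicate 3 was low, at 4.68 against 4.96 to 5.03. For Ccn2 CKO replicate 4 was high, at 10.43 against 9.53 to 9.63, and for Col5a1 CKO replicate 2 was high, at 9.27 against 8.96 to 9.03. The mean deposited intensity of CKO replicate 3 was 117.2, against 170.4 to 175.1 in the other arrays of its group.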

How the results depend on the processing

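Sparcl1 against control was called in 22 of 22 alternatives (adjusted p 3.71e-07 to 0.0136), and against double heterozygotes in 20 of 22. The exceptions were the values as deposited (1.23) and no moderation (1.33), each with 0 member probe sets called. Sparc against control was not called on the values as deposited (0.37), with median centring (0.36), no intensity trend (0.52), no moderation (0.52), only the 2 groups compared (0.53) or the replicate block (0.59, adjusted p = 0.058), each with 1 member probe set called. Leaving out 1 array gave 0.43 to 0.66 for Sparc and 1 to 3 member calls. Same-numbered arrays shared only a number, and the block changed the call of no other member gene. The F-test called 2 members with the filter on dim probe sets (which kept 7 of 15) and 3 with array weights, and 1 to 2 with 1 array left out.

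All probe sets called against control numbered 92 as deposited, 362 with median centring, 281 with no trend, 296 with no moderation, 2393 with array weights, 263 with only the 2 groups, 265 with the replicate block, 1362 without CKO replicates 2 and 3 together, and 168 to 897 without 1 array. Against double heterozygotes they numbered 15, 65, 53, 1, 613, 61, 65 and 650 in the same order, and 15 to 415. Double heterozygous minus control gave 8 with array weights, 1 with only the 2 groups and 2 without CKO replicates 2 and 3. The F-test gave 81 as deposited, 284 with median centring, 667 with the filter, 198 with no trend, 122 with no moderation, 1599 with array weights, 157 with the block, 885 without CKO replicates 2 and 3, and 185 to 653 without 1 array.

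Among members not called, signs turned as follows. Averaging all probe sets of a gene, Spock1 was -0.01 and Spock3 0.01 against control. Against double heterozygotes Smoc2 was -0.03, Spock1 -0.13 and Spock2 0.1, and between double heterozygotes and controls Spock3 was 0.15 and Fstl1 0.11. Against double heterozygotes Spock2 was also 0.0061 as deposited and 0.004 without CKO replicates 2 and 3, and Smoc2 -0.13 with the block. Without 1 array the ranges against control were -0.02 to 0.58 for Smoc2. Against double heterozygotes they were -0.04 to 0.23 for Smoc1, -0.08 to 0.17 for Smoc2, -0.2 to 0.03 for Spock2 and -0.26 to 0.04 for Spock3. Between double heterozygotes and controls they were -0.09 to 0.52 for Smoc2, -0.2 to 0.11 for Spock3 and -0.06 to 0.08 for Fstl1. The cause was not tested.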

Other observations

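Correlations between members were taken on their representative probe sets. With group means removed, Sparc and Sparcl1 had a Pearson r of -0.46 over 11 arrays, while over all arrays, group differences included, it was 0.74. Sparc and Fstl1 had r of 0.79 within groups and 0.82 over all arrays, and CKO replicate 2 was highest for both. These values are a description of arrays that share a normalisation. No test was run, and with 11 arrays in 3 groups an r within groups is imprecise.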
